A study of Homo sapiens with 38 samples.

Results

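MITF and 9 genes of melanocyte identity and pigment were followed through all 38 one-colour Affymetrix arrays of A375 melanoma cells and a drug-resistant clone of them. The set was named by symbol, as MITF, PAX3, TYR, TYRP1, DCT, PMEL, MLANA, PPARGC1A, RAB27A and TRPM1, and every probe set whose annotation names 1 of these genes alone was taken. That gave 25 probe sets for 9 of the 10 genes, out of 41097 probe sets for 19775 genes on the arrays. DCT had no such probe set and its expression was not analysed here. All 9 measured members entered the tests, with 20 of their 25 probe sets; the other 5 did not pass the filter on low signals described below, and 3 of these 5 were TRPM1 probe sets.

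The parental cells were A375, an established human melanoma line with an activated BRAF kinase. The resistant cells were 16R6-4, a single clone derived from A375 that had acquired resistance to GSK2118436, so that a difference between the lines is a difference between 1 clone and its parental culture. GSK2118436 (GSK436, dabrafenib) inhibits the RAF kinase. GSK1120212 (GSK212, trametinib) acts 1 step below it, on MEK, which activates ERK. All treatments lasted 24 h, and each line received DMSO as vehicle, GSK436 alone at 0.1 µM and at 1 µM, GSK212 alone at 10 nM and at 30 nM, and a pair of mixtures that held 10 nM GSK212 plus GSK436 at 0.1 µM (the low combination) or at 1 µM (the high combination). Parental groups held 3 arrays, except both GSK436 doses and 30 nM GSK212 with 2, and resistant groups held 3 arrays, except DMSO with 2. Nothing in the labels ties the arrays to separate cultures, so a p value reflects the spread among these samples, which may be technical, and the small number of arrays limits the precision.

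MITF is a basic helix-loop-helix leucine zipper transcription factor that directs the melanocyte lineage. It binds E-box sequences, among them the M-box in the promoters of the pigment enzymes, and its own melanocyte promoter is driven by PAX3, SOX10 and CREB, the last through a cyclic AMP response element. Its targets in melanocytes include the melanin enzymes, the melanosome proteins PMEL and MLANA, the melanosome transport factor RAB27A, the ion channel TRPM1 and the mitochondrial coactivator PPARGC1A. ERK signalling is known both to modify MITF protein and to act on its level in melanoma cells.

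Promoters are shown first, since the M-box and the cyclic AMP response element are the sequences by which MITF and its regulators are known to act on these genes. The 250 bases before each annotated start were read from RefSeq (GRCh38.p14), which held 18 starts for 9 of the 10 members; PMEL had no entry. Of these 3 are printed, 5′ to 3′ on the strand of the gene, in lower case with the motif matches in capitals. In MITF the capitals mark TGACGTCA, the palindromic cyclic AMP response element. In TYR, the rate-limiting melanin enzyme tyrosinase, and in TYRP1, a related melanin enzyme, they mark CATGTG, the core of the M-box, or its reverse complement CACATG.
MITF, most downstream of 3 starts, chr3:69936342-69936591, plus strand: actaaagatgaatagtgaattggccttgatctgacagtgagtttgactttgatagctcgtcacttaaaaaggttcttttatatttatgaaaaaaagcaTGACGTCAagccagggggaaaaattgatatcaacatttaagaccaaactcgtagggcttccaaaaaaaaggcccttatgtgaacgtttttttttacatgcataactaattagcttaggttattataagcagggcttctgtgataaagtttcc
TYR, chr11:89177625-89177874, plus strand: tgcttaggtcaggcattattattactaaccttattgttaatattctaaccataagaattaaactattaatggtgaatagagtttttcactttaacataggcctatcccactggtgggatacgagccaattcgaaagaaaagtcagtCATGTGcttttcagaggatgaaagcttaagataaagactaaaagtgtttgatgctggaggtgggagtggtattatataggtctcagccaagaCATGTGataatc
TYRP1, chr9:12693135-12693384, plus strand: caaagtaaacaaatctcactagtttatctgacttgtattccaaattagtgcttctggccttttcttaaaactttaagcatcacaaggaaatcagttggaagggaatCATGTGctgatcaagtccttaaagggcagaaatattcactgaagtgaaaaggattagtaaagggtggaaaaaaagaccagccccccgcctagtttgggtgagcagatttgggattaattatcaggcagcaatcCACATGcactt
The response element of MITF began 152 bases before the start, and the matches of TYR began 104 and 12 bases before it. In TYRP1 the matches began 144 and 11 bases before the start. Among 35116 promoters searched the same way on both strands, CATGTG occurred in 9.42% and in 6 of the 18 member starts, which belonged to 5 members, DCT, PPARGC1A, TRPM1, TYR and TYRP1. The longer form TCATGTG occurred in 2.52% of all promoters and in DCT, TYR and TYRP1. CACGTG, a palindromic E-box, occurred in 6.34% and in PPARGC1A alone of the members. TGACGTCA occurred in 1.65% and in MITF alone of the members. TCATGTG contains CATGTG, and none of the other motifs lies within another. A match describes the letters only.

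The signals are linear MAS5 intensities in arbitrary units, scaled to 1 trimmed mean of 150.0 on every array. A probe set has its own response, so levels are compared between samples for 1 probe set and not between genes. A signal is called low where it lies under 34.88, the pooled median of all probe sets and arrays. Changes are log2 fold changes of signal plus 2.8, with their standard error, from 1 limma fit over all 38 arrays and 18063 genes, and p is adjusted by Benjamini and Hochberg over all of these genes. A gene is called where adjusted p is under 0.05 and the change is at least 1 on the log2 scale in either direction. With several probe sets, the one with the highest mean stood for the gene.

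MITF was high in every array and higher in the resistant clone than in parental cells. Its leading probe set, 226066_at, gave 342.51, 465.27 and 282.73 in parental DMSO and 1029.39 and 1361.75 in resistant DMSO. Means were 363.5 ± 93.1 (SD, n = 3) and 1196 ± 235 (SD, n = 2), and the groups did not overlap. The clone differed by 1.73 ± 0.22 (SE) on the log2 scale with an adjusted p of 1.07e-06 in limma. The second probe set, 207233_s_at, gave 347.64, 340.88 and 266.01 in parental DMSO and 1133.23 and 1303.97 in resistant DMSO, a difference of 1.93 ± 0.20 with an adjusted p of 2.63e-08 in a fit of all 35888 kept probe sets, of which 2.46% were called. For the gene, the call held in all 13 other settings of the analysis, 1 of which averages its kept probe sets, at 1.61 to 2.00. It also held in all 38 fits that left out 1 array, at 1.53 to 1.93. Only leaving out 1 of the 3 parental or 2 resistant DMSO arrays could change the size of this difference.

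**Figure D1:**
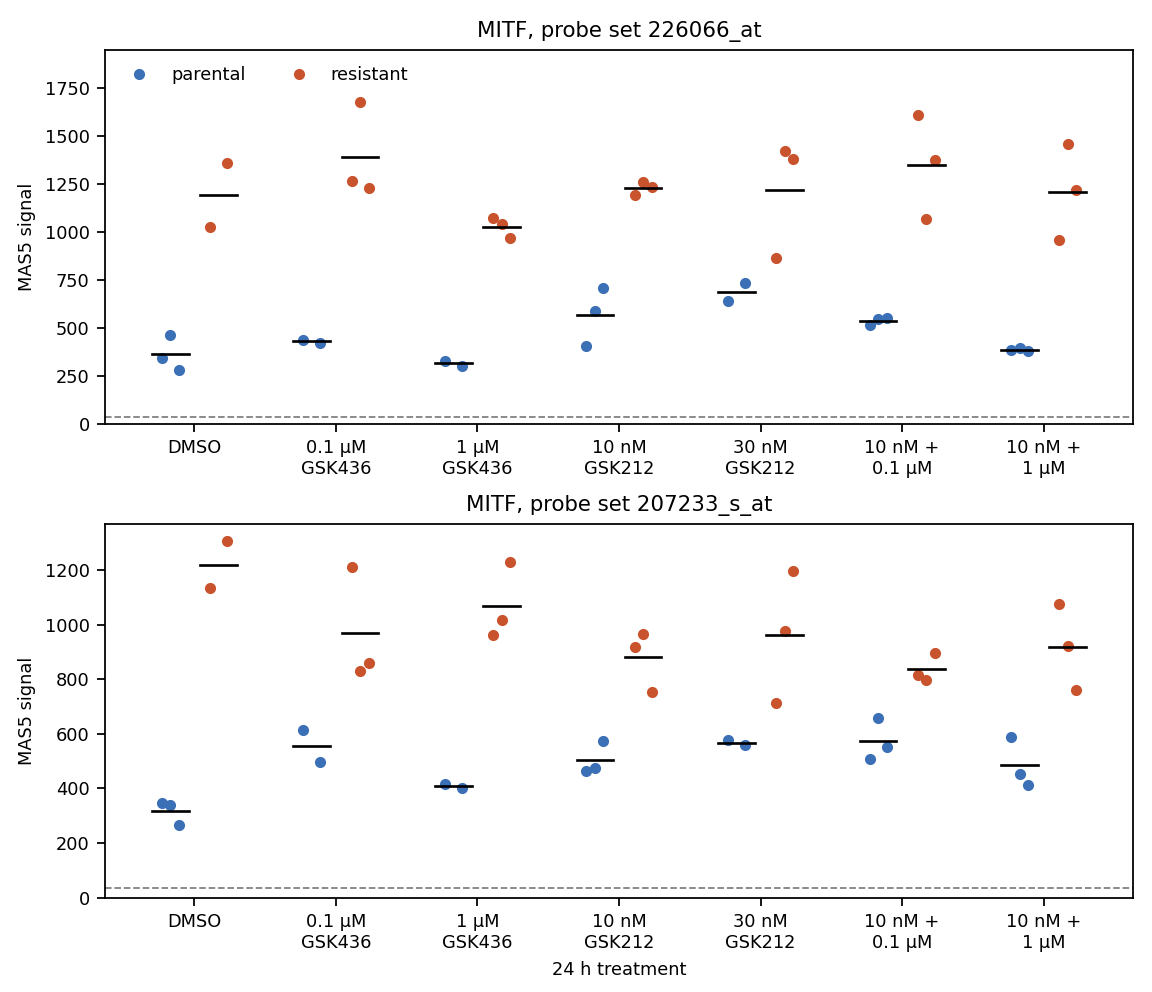
MITF signal (linear axis from 0, arbitrary units) of probe sets 226066_at and 207233_s_at on each array, by treatment, with parental cells in blue, resistant cells in orange, group means as black bars and the pooled median as a dashed line. Every resistant array lies above every parental array on both probe sets, the nearest pair being 864.17 and 733.84 on 226066_at and 711.52 and 656.15 on 207233_s_at.

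The lines were separate on both probe sets also when all treatments were pooled. On 226066_at the 18 parental arrays ran from 282.73 to 733.84 with a median of 430.34, and the 20 resistant arrays from 864.17 to 1678.88 with a median of 1235. On 207233_s_at the parental arrays ran from 266.01 to 656.15 with a median of 484.7, and the resistant arrays from 711.52 to 1303.97 with a median of 940.56. All 20 resistant arrays thus lay above all 18 parental arrays. As a description, the 14 group means of the 2 probe sets correlated with r of 0.922. They share their arrays, and this r spans the gap between the lines. Among resistant groups the order differed. The highest mean was 1392 at 0.1 µM GSK436 on 226066_at and 1219 in DMSO on 207233_s_at. The low combination, at 1352 on 226066_at, was the lowest resistant group on 207233_s_at, at 835. The remaining probe set, 1554874_at, was low on 37 of 38 arrays, at 0.39 to 44.2, and did not pass the filter.

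In parental cells the treated values of 226066_at were 438.58 and 422.1 at 0.1 µM GSK436, 326.41 and 303.97 at 1 µM GSK436, and 385.77, 393.6 and 377.7 in the high combination, all within the range of the 3 DMSO arrays. They were 404.28, 588.57 and 707.07 at 10 nM GSK212, 638.55 and 733.84 at 30 nM GSK212, and 516.59, 544.93 and 554.05 in the low combination. Both 30 nM arrays and all 3 low-combination arrays lay above all 3 DMSO arrays, and 1 of 3 arrays at 10 nM lay inside the DMSO range.

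Against DMSO these changes were 0.27 at 0.1 µM GSK436 and -0.17 at 1 µM GSK436, both with adjusted p above 0.05. They were 0.63 ± 0.20 at 10 nM GSK212 with an adjusted p of 0.0199, 0.94 ± 0.22 at 30 nM with 0.00251, 0.59 ± 0.20 in the low combination with 0.0322, and 0.11 in the high combination. None reached the fold of a call. At 30 nM the change passed the fold under quantile normalization, at 1.01, without the parental DMSO array at 465.27, at 1.13, and without the 30 nM array at 638.55, at 1.04. The other probe set gave 0.80 at 0.1 µM with an adjusted p of 0.00515, 0.38 at 1 µM with 0.195, 0.66 at 10 nM with 0.00982, 0.84 at 30 nM with 0.00449, 0.84 in the low combination with 0.00107 and 0.60 in the high combination with 0.0169. All 6 were positive and all were under the fold of a call.

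The direction of the smaller MITF changes rested on the scaling. The median change over all genes was itself 0.17 to 0.39 in the 6 parental comparisons under the deposited scaling and -0.43 to -0.12 after each array was centred on its own median. Centred, 226066_at gave -0.54 at 0.1 µM GSK436, -0.89 at 1 µM with an adjusted p of 0.0617, and -0.59 in the high combination. On 207233_s_at the centred changes were -0.01 at 0.1 µM, -0.34 at 1 µM and -0.10 in the high combination. At 10 nM, 30 nM and in the low combination 226066_at stayed positive, at 0.34, 0.52 and 0.13. The adjusted p in limma was then 0.586, 0.435 and 0.862, so centring left none of these changes under 0.05.

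In resistant cells 226066_at gave 1265.82, 1678.88 and 1232.47 at 0.1 µM GSK436, 1076.3, 1040.9 and 968.15 at 1 µM, and 1193.94, 1263.01 and 1237.51 at 10 nM GSK212. It gave 864.17, 1423.5 and 1380.14 at 30 nM, 1610.52, 1070.67 and 1374.29 in the low combination, and 957.54, 1458.58 and 1219.53 in the high combination. The range of every treated group overlapped that of the DMSO arrays. The 6 changes against DMSO ran from -0.20 to 0.22 on this probe set and from -0.54 to -0.19 on 207233_s_at, and none was called. With each array centred all were negative, at -0.50 to -0.19 on 226066_at and -0.99 to -0.43 on 207233_s_at, again without a call. The median change over all genes was then -0.30 to -0.19.

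MITF was also called higher in the clone within 5 of the 6 drug treatments. Within a treatment the difference on 226066_at was 1.67 at 0.1 µM GSK436, 1.70 at 1 µM and 1.62 in the high combination, and 1.30 in the low combination, 1.15 at 10 nM GSK212 and 0.80 at 30 nM, where it was under the fold of a call with an adjusted p of 0.0156. Every resistant array was above every parental array in all 6. The call at 10 nM was lost without the parental 10 nM array at 404.28, at 0.93. On 207233_s_at the within-treatment difference was called at 1 µM GSK436, at 1.37 with an adjusted p of 3.02e-06 (23.5% of probe sets), and was 0.55 to 0.92 in the other 5 treatments. The test of the difference between lines in the response to a drug was called for 207233_s_at at 0.1 µM GSK436 (-1.15 ± 0.29, adjusted p 0.0196), at 10 nM GSK212 (-1.14 ± 0.27, 0.025), at 30 nM (-1.21 ± 0.29, 0.0407) and in the low combination (-1.39 ± 0.27, 0.00658). In these 4 tests 2.46%, 1.08%, 0.463% and 0.476% of all probe sets were called. The 4 calls were made in 8 of 11, 6 of 12, 7 of 12 and 11 of 12 other settings, and in 35, 33, 24 and 37 of 38 fits without 1 array. For 226066_at the same test was negative in all 6 treatments too, at -0.93 to -0.03, with no call. At 30 nM it gave -0.93 ± 0.32, beside -1.21 ± 0.29 on 207233_s_at, within the standard errors, and at 0.1 µM GSK436 it gave -0.05 ± 0.32, beside -1.15 ± 0.29. The difference between the probe sets was not tested.

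Ranked by the group means of 226066_at, the 7 resistant groups came first, from 1392 ± 249 (SD, n = 3) at 0.1 µM GSK436 to 1028 ± 55.1 (SD, n = 3) at 1 µM GSK436, each overlapping with the next. Parental 30 nM GSK212 followed at 686.2 ± 67.4 (SD, n = 2), separated from the last resistant group, then 10 nM GSK212 at 566.6 ± 153 (SD, n = 3) and the low combination at 538.5 ± 19.5 (SD, n = 3). Parental 0.1 µM GSK436 at 430.3, the high combination at 385.7, DMSO at 363.5 and 1 µM GSK436 at 315.2 closed the order. Of 13 neighbouring pairs 3 did not overlap: resistant 1 µM GSK436 with parental 30 nM GSK212, and parental 0.1 µM GSK436 with both of its neighbours.

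Across the members, 3 of 9 were called in the clone against parental cells with DMSO, MITF higher and RAB27A and PPARGC1A lower, where 3.64% of all 18063 genes were called. The median member change was -0.63, beside -0.10 over all genes. In parental cells 1 member was called at 0.1 µM GSK436 (17.8% of all genes), 1 at 1 µM (19.5%), none at 10 nM GSK212 (11.7%), 1 at 30 nM (9.89%), none in the low combination (10.6%) and 1 in the high combination (17%). That made 4 of 54 member tests, or 7.41%, below the 14.4% of all genes, and is no result about the members. All 4 were lower with drug: PPARGC1A at 0.1 µM GSK436 and 30 nM GSK212, MLANA at 1 µM GSK436 and PAX3 in the high combination. Of all gene tests 5.15% were called lower and 9.25% higher. The direction of so few calls is no result about the members either.

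In resistant cells no member was called at 0.1 µM GSK436 (0.00554% of all genes) or 1 µM (0.0775%), and 1 was called, PPARGC1A higher, at 10 nM GSK212 (2.77%), 30 nM (4.31%), the low combination (4.86%) and the high combination (6.52%). The 4 calls made 7.41% of 54 member tests, beside 3.09% of all genes in either direction, 2.38% higher and 0.713% lower, and no member other than PPARGC1A was called with any drug in resistant cells. The difference between lines was called in 2 of 54 member tests, 3.7% where all genes had 3.28%, both for PPARGC1A, at 0.1 µM GSK436 (4.17% of all genes) and 30 nM GSK212 (0.792%). It was called for no member at 1 µM GSK436 (11%), 10 nM GSK212 (1.9%), or in the low (0.786%) or high combination (1.05%). Within the 6 drug treatments the clone differed in 12 of 54 member tests, 22.2% beside 14.1% of all genes, 7 higher and 5 lower, where 5.67% and 8.47% of all gene tests were called in those directions. Of the 7, 5 were MITF, 1 TYRP1 and 1 PPARGC1A, and of the 5, 3 were RAB27A, 1 PMEL and 1 MLANA, the last in the group through which MLANA passed the filter. PMEL passed the filter through parental arrays alone. The share of all genes called was 19.1% at 0.1 µM GSK436, 28.4% at 1 µM, 11.6% at 10 nM GSK212, 5.82% at 30 nM, 6.36% in the low combination and 13.4% in the high combination. Over the clone with DMSO, the 12 drug treatments and the 6 differences between lines, 17 of 380 tests of the 20 kept probe sets were called, beside 4.95% of all probe sets. Between drugs, combinations and doses 1 of 126 member tests was called, 0.794% beside 1.13% of all genes, for PPARGC1A.

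**Figure D2:**
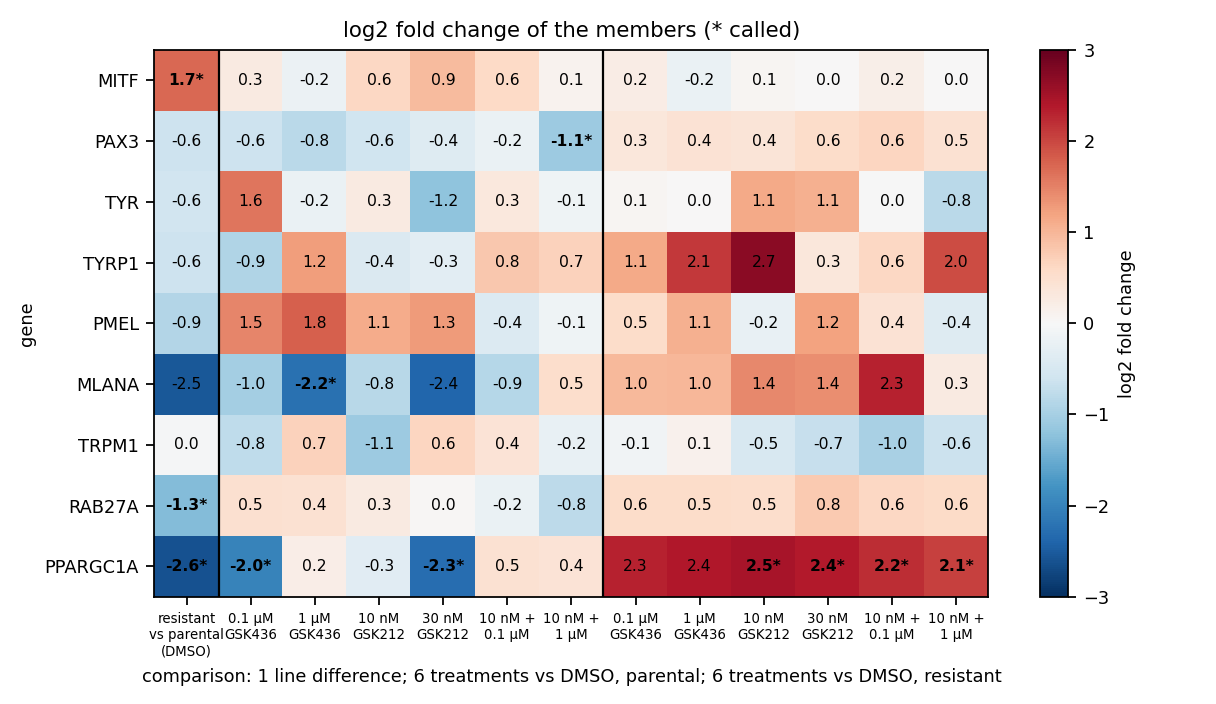
Log2 fold change of the 9 measured members (rows) in the clone against parental cells with DMSO and in each drug treatment against DMSO in each line (columns), by colour and value, with an asterisk on called changes. Of the members, MITF alone was called higher in the clone with DMSO, at 1.73, and the 4 calls in resistant cells are those of PPARGC1A.

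PAX3, the paired-box factor that acts on the MITF promoter, was above the pooled median on all 38 arrays on its leading probe set, 231666_at. Its other probe sets were above it on fewer arrays, 207680_x_at on 32, 207679_at on 9 and 216059_at on 5. The leading probe set gave 144.18, 190.02 and 138.84 in parental DMSO and 98.95 and 101.94 in resistant DMSO. Means were 158 ± 28.1 (SD, n = 3) and 100.4 ± 2.1 (SD, n = 2). The arrays did not overlap, but the change of -0.62 had an adjusted p of 0.351.

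Parental PAX3 was 80.13 and 125.3 at 0.1 µM GSK436, 105.34 and 73.16 at 1 µM, 82.54, 123.23 and 105.84 at 10 nM GSK212 and 129.42 and 107.22 at 30 nM, all below the 3 DMSO arrays. It was 118.85, 129.21 and 163.01 in the low combination and 113.78, 53.43 and 61.66 in the high combination. The high combination was called, at -1.08 ± 0.28 with an adjusted p of 0.00359, and only the low combination reached into the DMSO range. The call rested on single arrays: without the parental DMSO array at 190.02 the change was -0.94, and without the high-combination array at 53.43 or at 61.66 it was -0.87 or -0.97, all under the fold, and the mean of all 4 PAX3 probe sets turned its sign, to 0.52 with an adjusted p of 0.34.

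Treated resistant cells had PAX3 signals of 102.83 to 208.59, each above both resistant DMSO arrays, with changes of 0.34 to 0.65 and no call. As a description, the group means of 207680_x_at and 231666_at correlated with r of 0.121 over 14 groups. 207680_x_at was called at 1 µM GSK436 in parental cells, at -1.56 with an adjusted p of 0.0459, from arrays of 3.35 and 57.9 against 49.7, 42.48 and 75.19 in DMSO, where 15.2% of probe sets were called. In the clone at 1 µM GSK436 it was higher, at 1.84 with an adjusted p of 0.0124, with arrays of 54.87, 72.8 and 72.91 against the same 3.35 and 57.9, and both calls share the array at 3.35. Another PAX3 probe set, 216059_at, was above the pooled median on 5 arrays, all parental. It thus passed the filter through the line in which it was high. In the high combination it was lower in the clone, at -2.21 with an adjusted p of 0.0465 in limma (11.5% of probe sets). The arrays gave 3.58, 2.09 and 3.4 against 50.52, 28.98 and 8.53, and the call supports nothing about this probe set. The leading probe set 231666_at went the other way there, at 0.92 ± 0.28 with an adjusted p of 0.015, under the fold of a call, and every resistant array was above every parental one. Its difference between clone and parental cells was positive in all 6 drug treatments, at 0.22 to 0.92, and called in none. The group means of 231666_at formed a continuous order, from 164.6 ± 50.1 (SD, n = 3) in the resistant low combination to 76.3 ± 32.7 (SD, n = 3) in the parental high combination, with no gap between neighbours.

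The genes that control MITF, and its relatives, were taken as a list. Of 14 such genes tested, 1 was called in the clone with DMSO, SOX10, the neural crest factor that activates MITF, which fell. SOX10 ran from 426.58 to 1414.21 on parental arrays and from 1.96 to 20.96 on resistant arrays, so that MITF was higher on every array of the line in which this activator was low on every array. MIA, a melanoma inhibitory activity protein used as a lineage marker, fell with it, by 6.65 on the log2 scale with an adjusted p of 3.34e-11. The median change of the 14 genes was -0.05, beside -0.10 over all genes.

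With drug, 3 to 4 of the 14 rose in parental cells in each treatment and up to 1 fell, where 9.89% to 19.5% of all genes were called in either direction. FOXD3, a neural crest forkhead factor, rose in all 6, by 1.99 to 3.05, and TFEB, a relative of MITF that drives lysosome genes, rose in all 6, by 1.98 to 2.70. FOXD3 lost its call at 0.1 µM GSK436 in 6 of 11 other settings and without 3 single arrays, and TFEB at 30 nM GSK212 in 8 of 13 and without 4. TFAP2A, a factor that shares melanocyte enhancers with MITF, rose by 1.07 to 1.21 with 10 nM and 30 nM GSK212 and both combinations, calls that centring ended, at 0.36 to 0.91. In resistant cells TFAP2A rose by 1.32 to 1.74 in those same 4 treatments, and SOX9, which is often opposed to SOX10 in melanoma, fell by 1.86 to 2.40; neither GSK436 dose alone gave a call for any of the 14. The lines differed by test for FOXD3 at 1 µM GSK436 (-4.41 ± 1.00, adjusted p 0.00314) and at 10 nM GSK212 (-3.44 ± 0.95, 0.0451), for TFEB at 1 µM GSK436 (-3.51 ± 1.01, 0.0182) and for SOX9 at 30 nM (-1.64 ± 0.38, 0.0196) and in the high combination (-1.65 ± 0.36, 0.00983). The FOXD3 difference at 10 nM was lost in 24 of 38 fits without 1 array.

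TYR, TYRP1, PMEL, MLANA and TRPM1 were at the bottom of the scale in both lines, also in the clone with its higher MITF. Their 11 probe sets gave 418 values, of which 37, or 8.85%, were above the pooled median of 34.88, and the highest was 78.23. TYR had 17 of 114 values above that median, TYRP1 5 of 38, PMEL, the fibril protein of the melanosome, 5 of 38, MLANA, a melanosome membrane protein, 6 of 76, and TRPM1 4 of 152. At such signals arrays of 1 group could lie far apart, as the values show, and the size of a log2 change depends on the added constant.

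TYR (206630_at) was 10.87, 15.81 and 50.17 in parental DMSO and 13.72 and 12.67 in resistant DMSO. Its highest group was parental 0.1 µM GSK436, at 62.76 and 78.23, a change of 1.61 with an adjusted p of 0.177. No TYR change was called on this probe set. On 1555505_a_at TYR was lower in the clone at 1 µM GSK436, with arrays of 1.22, 19.84 and 3.99 against 41.05 and 50.99, at -2.51 with an adjusted p of 0.028 over all probe sets. The same probe set gave 1.94 and 9.11 in resistant DMSO against 17.36, 20.26 and 36.37, without a call.

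TYRP1 was 10.34, 7.21 and 4.84 in parental DMSO and 8.91 and 0.78 in resistant DMSO. Its 1 call was the clone at 10 nM GSK212, where parental arrays gave 16.88, 1.63 and 1.84 and resistant arrays 34.69, 35.98 and 48.85, a difference of 2.51 with an adjusted p of 0.0271. The call was lost without 5 of the arrays taken 1 at a time, with adjusted p up to 0.126, and without the arrays of high 3′ to 5′ ratio, at 2.02 with 0.319.

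PMEL was 3.86, 26.16 and 21.47 in parental DMSO and 13.84 and 2.2 in resistant DMSO. All 20 resistant arrays lay below the pooled median, at 1.35 to 33.9, and 5 of 18 parental arrays above it, up to 59. Its 1 call was the clone at 10 nM GSK212, with parental arrays of 45.1, 28.9 and 28.13 and resistant arrays of 15.14, 3.53 and 1.35, a difference of -2.21 with an adjusted p of 0.0373, again lost without 5 of the arrays taken singly. PMEL passed the filter through parental arrays alone, the line in which it was high, so this call supports nothing about it. TYRP1 and PMEL thus went opposite ways at 10 nM GSK212.

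MLANA (206426_at) was 19.75, 33.17 and 33.06 in parental DMSO and 0.59 and 5.44 in resistant DMSO, with no overlap, a change of -2.54 and an adjusted p of 0.086. It was called lower at 1 µM GSK436 in parental cells, with arrays of 4.38 and 3.21, at -2.23 with an adjusted p of 0.0497, and leaving out any 1 of 28 of the 38 arrays ended the call, with adjusted p up to 0.208. The second kept probe set, 206427_s_at, gave no call at 1 µM, with arrays of 1.53 and 34.03 against 8.76, 2.02 and 10.99 in DMSO, a change of 0.46 with an adjusted p of 0.76. At 30 nM GSK212 the probe sets went opposite ways, with -2.39 (adjusted p 0.0545) on 206426_at and 1.41 (0.403) on 206427_s_at, whose 30 nM arrays of 27.56 and 16.66 were above all 3 DMSO arrays. In the high combination 206426_at gave 1.31, 2.03 and 10.46 in the clone against 59.01, 26.43 and 44.48 in parental cells, a difference of -2.78. Only 3 of its 38 values were above the pooled median, and 2 of these were in this parental group, so MLANA passed the filter through the group in which it was high, and the call there supports nothing about it.

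TRPM1, the melastatin channel, was above the pooled median in those 4 values alone, and the median over the kept probe set 237069_s_at was 3.18. Its changes ran from -1.41 to 1.77 over the 39 comparisons and none was called.

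**Figure D3:**
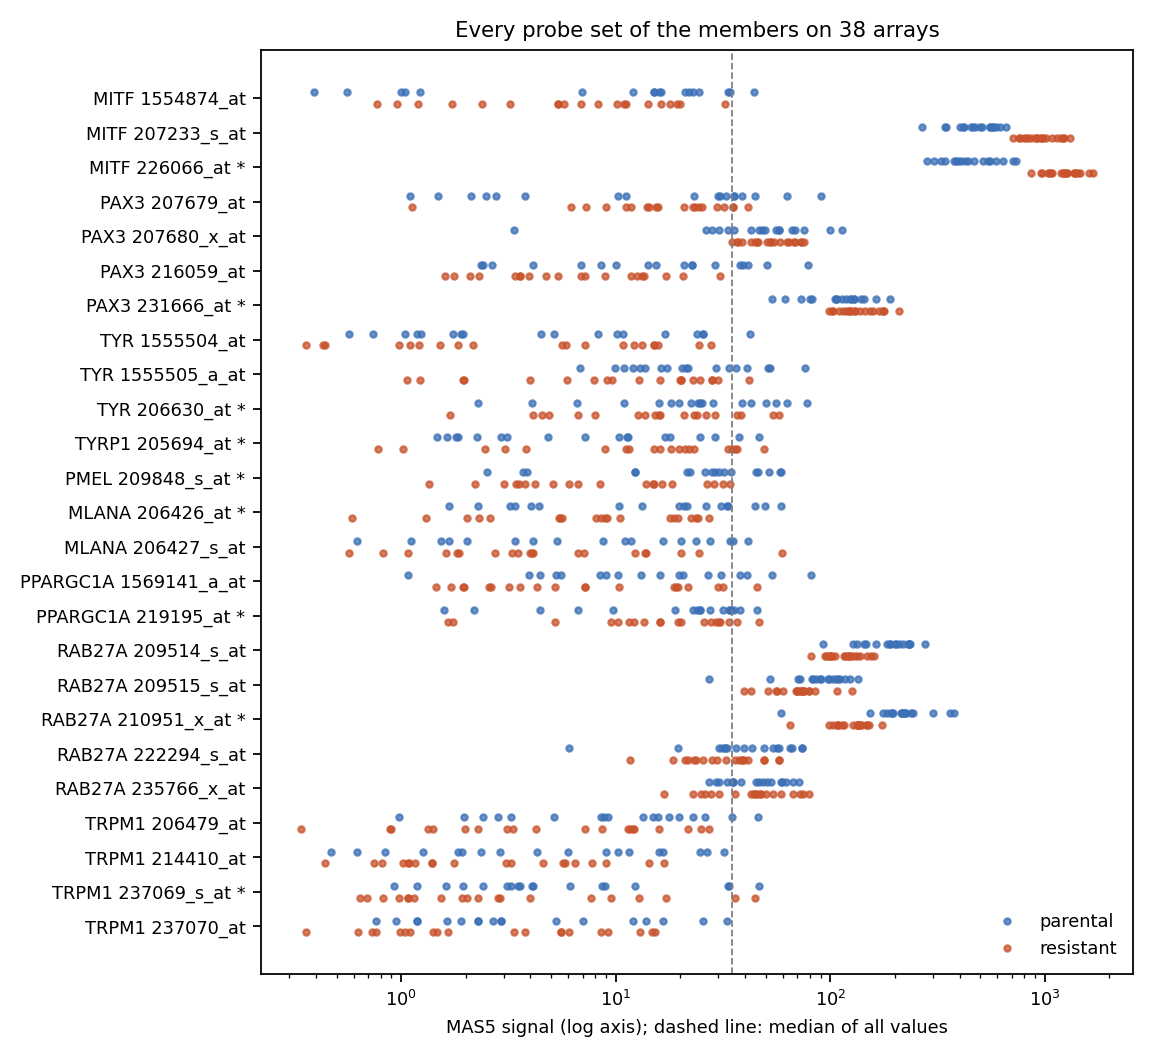
Signal (log axis, arbitrary units) of all 25 probe sets of the measured members on the 38 arrays, 1 point per array, parental in blue and resistant in orange. An asterisk marks the probe set that stood for its gene, and the dashed line is the pooled median of 34.88. The leading probe sets of MITF, RAB27A and PAX3 lie above the line on all arrays, and those of TYR, TYRP1, PMEL, MLANA, TRPM1 and PPARGC1A lie below it on most.

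RAB27A, the small GTPase that ties melanosomes to actin transport, was lower in the clone, against the direction of MITF. Its leading probe set 210951_x_at gave 223.77, 195 and 214.78 in parental DMSO and 108.65 and 64.57 in resistant DMSO, 211.2 ± 14.7 (SD, n = 3) and 86.6 ± 31.2 (SD, n = 2). The arrays did not overlap, and the change was -1.30 ± 0.32 with an adjusted p of 0.00921. It was -0.94 with an adjusted p of 0.366 without the resistant DMSO array at 64.57, and the adjusted p was 0.0526 to 0.12 with quantile normalization, centring, the mean of all probe sets or a fit of only these groups.

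Within drug treatments parental RAB27A was 243.89 and 359.53 at 0.1 µM GSK436, 221.3 and 376.39 at 1 µM and 302.24, 238.13 and 225.37 at 10 nM GSK212. Resistant cells gave 102.95, 134.57 and 138.73, then 115.44, 108.6 and 151.84, then 127.63, 107.61 and 133.08 in the same treatments, below every parental array of that treatment. The clone was lower by call in these 3, at -1.23 (adjusted p 0.00379), -1.20 (0.00325) and -1.03 (0.0083). Each call was lost when 1 array was left out: the changes were -0.96 and -0.82 without the parental arrays at 359.53 and 376.39, and -0.91 and -0.94 without the parental array at 302.24 or the resistant array at 107.61. Centring brought the GSK436 values to -0.56 and -0.46.

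At 30 nM GSK212 the parental arrays were 216.84 and 213.1 and the resistant arrays 134.06, 174.23 and 133.9. In the low combination they were 176.28, 183.39 and 192.03 against 134.78, 148.67 and 113.35, and in the high combination 194.27, 58.72 and 153.28 against 146.55, 98.71 and 139.27. The lines did not overlap at 30 nM or in the low combination and overlapped in the high combination, and none of the 3 was called. No RAB27A change with drug was called in resistant cells, with changes of 0.53 to 0.78 against DMSO, and in parental cells the high combination gave -0.79 with an adjusted p of 0.0385.

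The other 4 RAB27A probe sets were also lower in the clone with DMSO, at -0.63, -0.59, -0.79 and -0.44, with no call. Of these, 209514_s_at followed the leading one over the 14 group means with r of 0.899 and was called in the clone at 0.1 µM GSK436, at -1.02 with an adjusted p of 0.0144 (15.6% of probe sets). In the order of levels 6 parental groups came first, all but the high combination, from 301.7 ± 81.8 (SD, n = 2) at 0.1 µM GSK436 to 183.9 ± 7.9 (SD, n = 3), and resistant DMSO came last. Neighbours did not overlap at 3 of 13 steps. RAB27A lies on chromosome 15. Of its 20 nearest measured genes 18 had a negative change in the clone with DMSO, where 57.0% of all genes did, and 1 was called lower. The median of the 20 was -0.55, beside -0.10 over all genes, a description without a test.

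**Figure D4:**
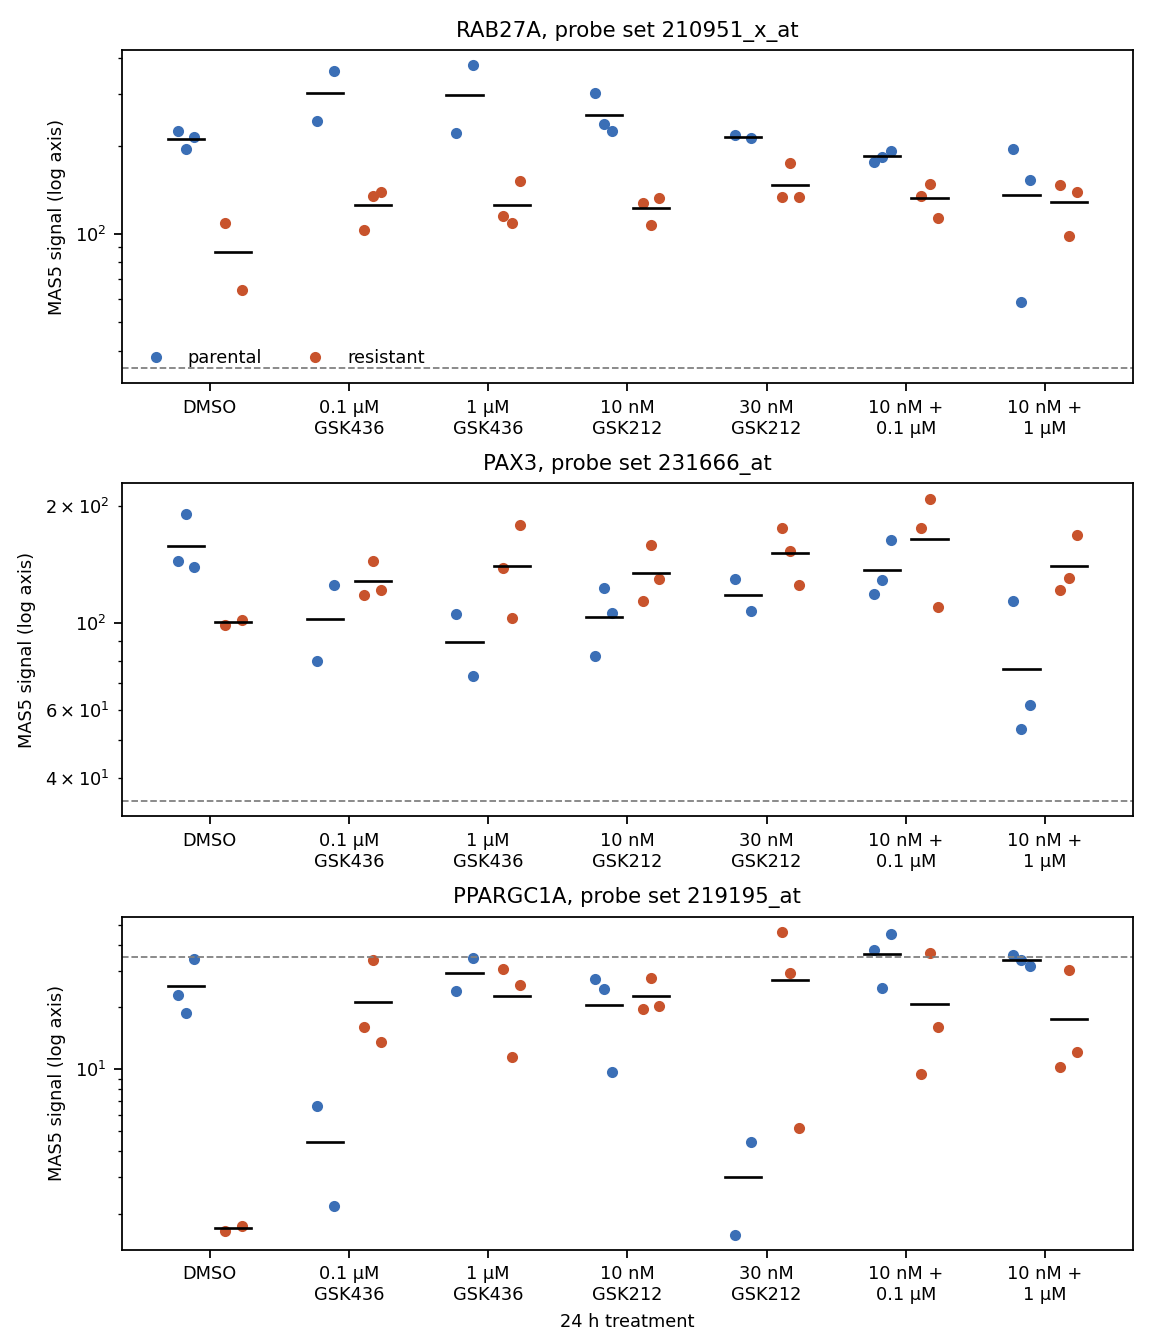
Signal (log axis, arbitrary units) of the leading probe sets of RAB27A, PAX3 and PPARGC1A on each array by treatment, with parental cells in blue, resistant cells in orange, group means as black bars and the pooled median as a dashed line. RAB27A is lower on resistant than on parental arrays in DMSO, PAX3 overlaps between lines with most drugs, and PPARGC1A is at 1.65 and 1.74 on both resistant DMSO arrays.

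Other genes of melanosome transport and pigment were called with the drugs. Of 23 tested, 0 were called in the clone with DMSO, where 3.64% of all genes were, and 3 to 4 rose and 1 to 2 fell in each parental treatment. The parental counts are 4 to 5 of 23, where 9.89% to 19.5% of all genes were called, and are no result about the list. SYTL2, a synaptotagmin-like protein that binds RAB27A, rose in all 6 parental treatments by 1.30 to 2.63, and MLPH, melanophilin, which links RAB27A to myosin, fell in all 6 by 1.42 to 2.63. GPNMB, a melanosome glycoprotein related to PMEL, rose in all 6 by 1.04 to 1.85, and LYST, the lysosome traffic factor of Chediak-Higashi syndrome, by 1.05 to 2.00, the lowest in the low combination, where the call was lost in 5 of 13 other settings.

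In resistant cells none of the 23 was called with GSK436 alone. With 10 nM and 30 nM GSK212 and both combinations SYTL2 rose by 1.23 to 1.79, GPNMB by 1.12 to 1.76, and MLPH fell by 1.42 to 2.14. The lines differed by test at both GSK436 doses for SYTL2 (-1.69 and -1.43), GPNMB (-1.30 and -1.18), LYST (-1.67 and -2.07) and MLPH (1.70 and 1.35), with adjusted p of 6.31e-05 to 0.0451. The GPNMB and MLPH differences at 1 µM were lost in 9 and 15 of 38 fits without 1 array. The 3′ to 5′ ratio of actin, a measure of RNA quality, was above 20 on every parental array with GSK436 alone. It was above 20 on 1 of 3 resistant arrays at each GSK436 dose and on no DMSO array. In these differences drug response and RNA quality cannot be told apart. SYTL2 also differed at 10 nM and 30 nM GSK212, at -1.11 and -1.39, each lost in 4 of 13 other settings. Centring ended the calls of GPNMB in all 4 resistant and 3 parental treatments and those of SYTL2 in 2 resistant and 2 parental treatments, and it ended none of MLPH. Comparisons within a line share their DMSO arrays.

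**Figure D5:**
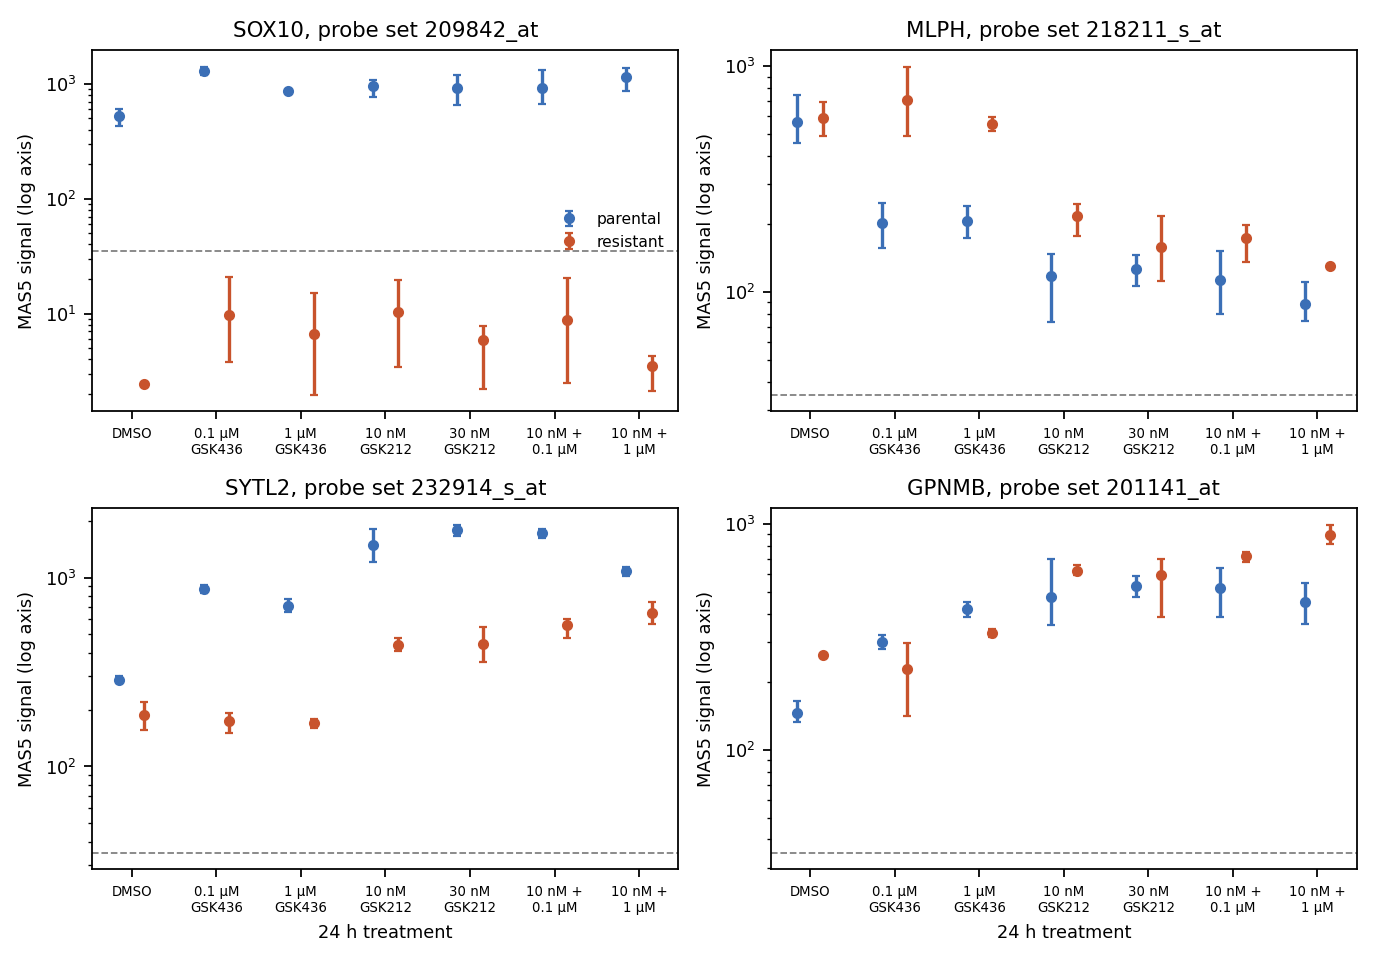
Signal (log axis, arbitrary units) of SOX10, MLPH, SYTL2 and GPNMB by treatment, with points for group means, bars from the lowest to the highest array, parental cells in blue, resistant cells in orange and the pooled median as a dashed line. SOX10 lies above the line in all parental groups and below it in all resistant groups, and MLPH is lower and SYTL2 and GPNMB higher than with DMSO in all 6 parental treatments.

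Of 23 further genes linked to MITF, 2 rose and 1 fell in the clone with DMSO, where 3.64% of all genes were called. SNAI2, a zinc finger factor of the neural crest, rose by 1.30 ± 0.35 with an adjusted p of 0.0203, and RRAGD, a GTPase of amino acid signalling to mTOR, by 1.03 ± 0.22 with 0.00223. RRAGD fell under the fold in 4 of 13 other settings, and SNAI2 was lost without either resistant DMSO array or without the parental one labelled 1. PIR, pirin, fell by 2.44 ± 0.20 with an adjusted p of 4.24e-11. The median of the 23 was -0.15, beside -0.10 over all genes. SNAI2 rose by 2.01 to 2.41 in all 6 parental treatments, where MITF changed by -0.17 to 0.94, and by 1.27, 1.10 and 2.21 in resistant cells at 30 nM GSK212 and in the low and high combination. Its call in the resistant low combination was lost in 22 of 38 fits without 1 array.

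PPARGC1A, the coactivator PGC1 alpha that raises mitochondrial genes, was at or below the pooled median on most arrays, and its calls rest on arrays near the bottom of the scale. On 219195_at it was 22.9, 18.82 and 34.19 in parental DMSO and 1.65 and 1.74 in resistant DMSO, a change of -2.61 ± 0.67 with an adjusted p of 0.0121. Both resistant DMSO values are below the added constant of 2.8, so the size of the change depends on that constant.

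Parental PPARGC1A was 6.67 and 2.18 at 0.1 µM GSK436 and 1.58 and 4.42 at 30 nM GSK212, below all DMSO arrays, and these were called at -2.00 (adjusted p 0.025) and -2.28 (0.0145). It was 23.83 and 34.44 at 1 µM GSK436, 27.35, 24.63 and 9.71 at 10 nM GSK212, 38.02, 24.79 and 45.44 in the low combination and 35.65, 33.75 and 31.7 in the high combination. The higher dose of GSK436 and the lower dose of GSK212 thus overlapped the DMSO range, and the other dose of each lay below it. The low combination exceeded 0.1 µM GSK436 by 2.46 with an adjusted p of 0.0489 (1.26% of all genes called), the 1 member call between treatments, and leaving out any 1 of 30 of the 38 arrays ended it.

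In resistant cells PPARGC1A was 16.06, 33.73 and 13.58 at 0.1 µM GSK436, 30.51, 11.47 and 25.72 at 1 µM and 19.58, 27.82 and 20.23 at 10 nM GSK212. It was 46.34, 29.41 and 5.22 at 30 nM, 9.51, 36.74 and 16.11 in the low combination and 10.23, 30.29 and 12.16 in the high combination. All 18 treated arrays lay above both DMSO arrays. The changes were 2.32 and 2.41 for the GSK436 doses, with adjusted p of 0.848 and 0.392, and 2.48 (0.0236), 2.38 (0.0223), 2.22 (0.0313) and 2.05 (0.0403) for the other 4, which were called. The sizes overlapped within their standard errors, and the adjusted p depends on how many of all genes change in a comparison. Centring each array ended all 4 calls, at 1.60 to 2.03 with adjusted p of 0.059 to 0.103, and so did a pseudocount of 9.88, at 1.17 to 1.48 with 0.0566 to 0.124. A fit of only the groups compared ended them as well, with adjusted p of 0.0727 to 0.263.

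The rise was on 219195_at alone. The second probe set, 1569141_a_at, gave 29.83 and 4.31 in resistant DMSO and 1.45, 3.18 and 2.57 at 30 nM GSK212, all below both DMSO arrays, a change of -1.56 with an adjusted p of 0.468. In the other 3 treatments called on 219195_at it gave -1.07 at 10 nM, -0.17 in the low and 0.16 in the high combination. The mean of both probe sets gave 0.41 to 1.10 in these 4 treatments, with adjusted p of 0.347 to 0.801.

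The difference between lines was called at 0.1 µM GSK436, at 4.32 ± 0.94 with an adjusted p of 0.00383, and at 30 nM GSK212, at 4.66 ± 0.94 with 0.00651. At 30 nM the clone was higher by 2.05 with an adjusted p of 0.0436. Most PPARGC1A calls rested on single arrays. Leaving out either resistant DMSO array ended the 4 calls in resistant cells, with adjusted p of 0.124 to 0.185, and the call in the clone with DMSO, at 0.0923 and 0.118, which was also lost without the parental DMSO array at 34.19, at 0.0631. Leaving out 2 or 3 of the treated arrays of each group, 1 at a time, ended its call too, with adjusted p of 0.0522 to 0.183. The parental calls were lost without the DMSO array at 34.19, with adjusted p of 0.0682 and 0.0575. That at 0.1 µM was also lost without the DMSO array at 22.9, at 0.0513, or the treated array at 2.18, at 0.19, and that at 30 nM without the treated array at 1.58, at 0.141. The difference between lines at 30 nM was lost without that same array, at 4.30 with 0.0529. The clone at 30 nM lost its call without any 1 of 5 arrays, with adjusted p up to 0.276, and with the replicate number as a block, at 2.03 with 0.0553. On 1569141_a_at parental cells were higher at 0.1 µM GSK436, with 30.97 and 40.91 against 4.42, 5.28 and 3.95 in DMSO, at 2.39 with an adjusted p of 0.0685, and the mean of both probe sets gave 0.20 there in place of -2.00.

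Of 8 partners of PGC1 coactivators tested, 0 were called in the clone with DMSO and 2 to 4 fell in each parental treatment, with none higher, where 9.89% to 19.5% of all genes were called in either direction. TFAM, the mitochondrial transcription factor, fell by 1.05 to 1.33 in 5 of 6 parental treatments, all but 30 nM GSK212, and PPARG, a nuclear receptor that PGC1 coactivators bind, fell by 1.05 to 1.87 in all 6. Medians of the 8 were -0.86 to -0.56 while all genes had 0.17 to 0.39. In resistant cells 1 call was made, PPARGC1B in the high combination, at -1.02 with an adjusted p of 0.0434. The lines differed by test for TFAM at 0.1 and 1 µM GSK436, at 1.25 and 1.27, with adjusted p of 0.00764 and 0.00362.

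Of 14 ERK output genes, 12 to 14 fell in each parental treatment. With GSK436 alone in parental cells, drug response and RNA quality cannot be told apart. In resistant cells 0 fell with either GSK436 dose and 9 to 12 with GSK212 or a combination. Summed over the 6 treatments, 5.15% of all gene tests were called lower in parental and 0.713% in resistant cells. A link between MITF and ERK output was not tested.

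Genes whose pattern was most like that of MITF were taken by Pearson r over the 14 group means of log2 signal. The 5 highest were CES1 (0.966), LINC00520 (0.966), PLOD2 (0.963), KITLG (0.961) and FAM162A (0.960); the groups share lines and DMSO arrays, and the values are a description. Among the members PAX3 had 0.54, TYRP1 0.14, PPARGC1A -0.19, MLANA -0.33, TRPM1 -0.35, TYR -0.35, PMEL -0.63 and RAB27A -0.73. PAX3 was the highest of the members and RAB27A the lowest. For PMEL, which was low throughout, the highest were DAND5 (0.903), HAND1 (0.895), MIR2052HG (0.894), ZNF217-AS1 (0.888) and SEPTIN1 (0.879). The group means of these 5 ran from 2.15 to 6.31 on the log2 scale and those of PMEL from 2.81 to 5.86. The 5 were thus also near the bottom of the scale, and their r is a description.

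RNA quality and other markers moved with the groups. The 3′ to 5′ ratio of actin probe sets ran from 3.72 to 45 and was above 20 on 15 arrays, among them all 4 parental arrays with GSK436 alone and none with DMSO, and the median signal of an array ran from 21.58 to 52.39. MITF in the clone with DMSO was called with the log2 actin ratio as a covariate and without those arrays. As no DMSO array was among them, leaving them out could not change the size of that difference. The parental GSK436 comparisons and the differences between lines at either GSK436 dose could not be fitted without them. There drug response and RNA quality cannot be told apart. Summed over the 6 parental treatments, 9.25% of all gene tests were called higher. Of 6 keratinocyte, 7 leukocyte and 7 fibroblast and endothelial markers tested, 1 to 2, 0 to 3 and 2 to 3 rose in parental treatments. Their summed signals were 3776.8, 103.3 and 161.8 in parental DMSO, 5046.1 to 7222, 182.1 to 293.9 and 462.9 to 692.5 in treated parental groups, and 2038.8 to 2905.9, 100.2 to 187.8 and 80.2 to 506.6 in resistant groups. Summed over the 6 resistant treatments, 2.38% of all gene tests were called higher. In resistant cells 2 of the fibroblast and endothelial markers rose in each treatment that held GSK212, and no other of these markers rose with drug. No value of the table is 0, so a signal above 0 does not show that a marker was expressed. All 7 leukocyte markers had means under the pooled median in parental and in resistant DMSO. Of the 7 fibroblast and endothelial markers 5 did so in parental DMSO and 7 in resistant DMSO, and of the 6 keratinocyte markers 4 and 5. The part of the markers in the changes of the members was not tested. In bulk RNA, fewer cells of a type and less RNA per cell cannot be told apart.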

How the data were processed

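The values analysed are the 38 columns of the authors' deposited table of Affymetrix signal intensities. The submitters' processing notes name MAS5, without a version, as the method behind them. Each column has a 2% trimmed mean of 150.0, and no value is 0 or negative. The genome build behind the table is not given in the sources used here. Total RNA was extracted with Trizol and amplified to biotin-labelled cRNA, per the labels' protocols.

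Of 54675 probe sets, 41097 name 1 gene, 1801 several and 11777 none in the platform annotation, and 41043 of those with 1 gene matched a RefSeq gene (GRCh38.p14), with 0 symbols changed. The log2 of signal plus 2.8, the pooled 10th percentile, was fitted with limma 3.58.1 (R 4.3.3; eBayes with trend) over 14 groups and 38 arrays, giving 24 residual degrees of freedom and 39 comparisons. The fit took the 35888 probe sets with a signal over 34.88, the median of all values, on 2 or more arrays, and the one with the highest mean for each gene. The fit was tested on simulated data. Tables and plots used Python 3.11.15, pandas 2.3.3, numpy 2.4.6 and matplotlib 3.10.9.

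The members, the other gene lists and the tests were chosen with earlier results of these data known. All members were described in every comparison, with up to 4 called genes a list and comparison from the other lists. Another 13 settings and 38 fits without 1 array were run. Comparisons of the lines within each drug treatment were added after the data were seen. Groups are unbalanced and small, and MAS5 values of dim probe sets vary strongly between arrays.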

Additional observations from a re-analysis of the deposited data

Results flagged for a closer look

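In 6 results the tested change from DMSO differed between the lines. PPARGC1A did so at 0.1 µM GSK436, where the clone's change exceeded the parental one by 4.32 ± 0.94 (SE) on the log2 scale with an adjusted p of 0.00383 in limma, and at 30 nM GSK212, by 4.66 ± 0.94 with 0.00651. The parental changes were -2.00 and -2.28 and the resistant ones 2.32 and 2.38. Both resistant DMSO arrays were at 1.65 and 1.74, and the mean of both PPARGC1A probe sets gave 1.19 and 1.05 with adjusted p of 0.58 and 0.978.

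The MITF probe set 207233_s_at differed at 0.1 µM GSK436 by -1.15 with an adjusted p of 0.0196, at 10 nM GSK212 by -1.14 with 0.025, at 30 nM by -1.21 with 0.0407 and in the low combination by -1.39 with 0.00658. The parental changes were positive and the resistant changes negative in all 4. The other MITF probe set, 226066_at, was negative in all 6 treatments too, at -0.93 to -0.03, with no call, and the difference between the probe sets was not tested. No group held more than 3 arrays, so single arrays far from their group were not tested for. For both genes the difference at 0.1 µM GSK436 uses parental arrays with actin 3′ to 5′ ratios of 37.2 and 37.5. Parental DMSO arrays had 4.59 to 12.0, so drug response and RNA quality cannot be told apart there.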

How the results depend on the processing

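MITF in the clone with DMSO was called in all 13 other settings and all 38 fits without 1 array. Of those fits, only the ones without a DMSO array could change the size of that difference. Most member calls at low signals did not hold in all settings and fits. Members called in the clone with DMSO numbered 3 in the main setting, 1 with the mean of all probe sets or a fit of only the groups compared, and 1 to 4 without 1 array. Parental calls (4) became 7 with quantile normalization, 8 with centring, 1 with the filter at the 75th percentile (128.16), 0 with the mean of probe sets, and 1 to 5 without 1 array. Resistant calls (4) became 2 with quantile normalization, 0 with centring, with a pseudocount of 9.88 or with the 75th percentile filter, 1 with the mean of probe sets, only the groups compared, the actin covariate or without the 15 arrays of high 3′ to 5′ ratio, and 0 to 4 without 1 array. Differences between lines (2) became 6 with quantile normalization, 1 with the mean of probe sets, 0 with only the groups compared, 7 with array weights, and 1 to 5 without 1 array.

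Calls between treatments (1) became 2 with centring or array weights, 0 with the pseudocount of 9.88, no filter, the 75th percentile filter, the mean of probe sets, only the groups compared or the actin covariate, and 1 without the arrays of high ratio, where the comparisons left had 0 in the main setting; they were 0 to 2 without 1 array. Calls within treatments (12) became 6 with the mean of probe sets and 9 to 14 without 1 array. Probe sets called (17) became 11 with the 75th percentile filter, 4 with only the groups compared, 8 without the arrays of high ratio (13 over the same comparisons) and 6 to 19 without 1 array. The mean of probe sets reversed PPARGC1A at 0.1 µM GSK436 in parental cells (0.20) and PAX3 in the parental high combination (0.52). The cause of these changes was not tested. Without the arrays of high ratio the parental 0.1 and 1 µM GSK436 comparisons had no arrays.

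Same-numbered arrays did not deviate together: the median correlation of their deviations from the group means was 0.00917 over 224 pairs, beside -0.00476 over 445 other pairs, and 16 of 38 arrays correlated best with their own number. With the replicate number as a block the counts were 3, 5, 5, 2, 1, 11 and 17 in the order above, and of 29 named member results only PPARGC1A in the clone at 30 nM GSK212 lost its call.

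Of the 29 named member results, 10 to 29 kept direction and side of the threshold under the 11 settings in which all of them were fitted, fewest with the mean of probe sets. Signal limits the pigment genes, most of whose values lie under the pooled median.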

Other observations

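Markers of melanoma states other than the members were called lower in the clone with DMSO for 5 of 10 tested. In that comparison 3.64% of all genes were called in either direction. The 5 were MIA at -6.65, ERBB3, a neuregulin receptor, at -5.02 and NGFR, the nerve growth factor receptor of neural crest cells, at -4.10. TNC, tenascin C, was at -2.49 and WNT5A, a Wnt ligand, at -2.10 on the log2 scale. Each had an adjusted p of 0.000411 or less in limma. With drug, ERBB3 rose in all 6 parental treatments, by 1.85 to 2.54, and in the 4 resistant treatments that held GSK212, by at least 2.30.

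The 10 measured genes on each side of a member along its chromosome were set beside the members in the clone with DMSO, where the median over all genes was -0.10 and 57.0% of genes were negative. For TRPM1, also on chromosome 15, 16 of 20 neighbours were negative with a median of -0.51, and 3 were called lower. For PMEL 17 of 20 were negative with a median of -0.28, and 1 was called lower. For MITF on chromosome 3, itself at 1.73, 14 of 20 were negative with a median of -0.46 and 1 was called lower. For TYR it was 14 of 20, with a median of -0.18 and 0 called, and for PAX3 11 of 20, with -0.28 and 2 called lower. Other members with a negative change had neighbours with a positive median: for PPARGC1A, itself at -2.61, 8 of 20 were negative with a median of 0.08 and 0 called, and for TYRP1 and MLANA, both on chromosome 9, 9 of 20 were negative with a median of 0.13, of which 2 and 3 were called higher, and for TYRP1 1 was called lower. These are descriptions without a test.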
